A study of Mus musculus with 4 samples.

Results

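The miR-29 family was followed in PACs, proangiogenic cells cultured from bone marrow that stick to fibronectin and favor new vessel growth. Its members were chosen by name: every row of the deposited table for miR-29a, miR-29b or miR-29c with an arm suffix. They comprised 7 of the 568 listed miRs, namely 3 guide strands (miR-29a-3p, miR-29b-3p and miR-29c-3p) and the 4 opposite 5p arms of their hairpins. All mice had hindlimb ischemia from surgical removal of the femoral artery, and their PACs were cultured for 4 days on fibronectin. There were 4 groups, each measured in 1 library of pooled RNA: CTL (C57Bl/6, 2 months old), aging (C57Bl/6, 16 months old), SMK (C57Bl/6, 2 months old, exposed to cigarette smoke from before surgery) and HC (APOE-/-, 2 months old, on a Western-type diet from before surgery). HC mice therefore differed from CTL in genotype and in diet, which cannot be told apart. By the labels the pools held 6 CTL samples, 4 SMK samples, 4 HC samples and 2 aging samples, the last fewer than the methods state.

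The miR-29 guides are known as repressors of extracellular matrix genes, above all those for fibrillar and basement membrane collagens, elastin and fibrillin. They also repress the DNA methyltransferase genes Dnmt3a and Dnmt3b and the survival gene Mcl1. A guide pairs with target RNAs mainly through its seed, the bases 2 to 8, so guides with the same seed can share targets, and a fall of miR-29 is a known feature of fibrosing heart, liver and lung tissue. Collagen and other target RNAs were not measured in these libraries.

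The 3 guides are shown with the seed in capitals, because they share it and differ elsewhere (RefSeq, GRCm38.p6, written 5′ to 3′):
miR-29a-3p: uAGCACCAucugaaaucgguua
miR-29b-3p: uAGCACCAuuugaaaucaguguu
miR-29c-3p: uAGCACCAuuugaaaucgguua
No other of the 487 listed miRs with a RefSeq sequence had this seed. MiR-29c-3p differed from miR-29a-3p by a single base (C10U, counted from 1 at the 5′ end, miR-29a-3p first). MiR-29b-3p differed from miR-29c-3p at 3 positions (G18A, U21G and A22U, miR-29c-3p first) and carried 1 more base at its 3′ end. The uracils at bases 9 to 11 of miR-29b-3p and miR-29c-3p have been linked in human cells to fast turnover, and the last bases of miR-29b-3p, AGUGUU, to its transport into the nucleus. Of the 487 sequences, 10 had UUU at bases 9 to 11 and only miR-29b-3p ended in AGUGUU.

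The hairpins are shown with both mature arms in capitals, because the 5p arms tell apart the loci that make the same miR-29b-3p (RefSeq, GRCm38.p6, 5′ to 3′):
Mir29a: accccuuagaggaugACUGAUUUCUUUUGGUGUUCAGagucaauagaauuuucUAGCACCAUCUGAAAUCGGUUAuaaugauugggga
Mir29b-1: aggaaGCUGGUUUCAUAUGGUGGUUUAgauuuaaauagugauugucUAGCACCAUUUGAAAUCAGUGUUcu
Mir29b-2: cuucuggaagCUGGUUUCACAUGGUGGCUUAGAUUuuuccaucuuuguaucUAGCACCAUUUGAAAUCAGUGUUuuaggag
Mir29c: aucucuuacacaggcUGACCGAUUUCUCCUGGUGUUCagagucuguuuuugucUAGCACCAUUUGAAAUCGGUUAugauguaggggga
Mir29a (31062660 to 31062747) and Mir29b-1 (31063023 to 31063093) lie on the minus strand of chromosome 6, with 275 bases between them. Mir29b-2 (195037040 to 195037120) and Mir29c (195037547 to 195037634) lie on the plus strand of chromosome 1, with 426 bases between them. In GENCODE, both hairpins of chromosome 1 are within an exon of the noncoding transcript A330023F24Rik on the same strand, and within an exon of Cd46, a complement regulator gene, on the opposite strand. Mir29a overlaps no other annotated gene, and Mir29b-1 overlaps an exon of the long noncoding RNA Gm27019 in part.

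Levels are in RPM, reads scaled to the library total of miR reads, as deposited. Every value was a whole multiple of the smallest value of its library, so that counts could be recovered, with totals from 1038986 counts in HC to 2541732 in CTL. The lowest level of any member was 5 counts. With 1 library per condition there were no replicates, no test of a condition was possible and no p-value is given. Each fold is followed in parentheses by its exact 95% interval for 2 Poisson counts, a measure of counting error between libraries that says nothing of the spread among mice. By the limits of the study, a miR counted as lower under 0.8-fold and as higher over 1.6-fold if either library of the pair (CTL and 1 of the cardiovascular risk factor, or CRF, libraries) reached 100 RPM. All 3 guides passed this minimum and none of the 4 opposite arms did. A miR scarce in CTL could pass by its CRF level alone, which raises the median fold and the share called higher among all tested miRs. The RPM of different miRs are shares of reads and not numbers of molecules. In such bulk libraries, fewer cells of a type and less RNA per cell cannot be told apart.

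The share of the library held by all guides together was 6.48% for CTL, 4.74% for SMK, 4.86% for HC and 5.26% for aging. The CTL library thus held the highest share of the 4, and the 3 CRF libraries lay close to each other. The summed guides were at 0.812-fold of CTL in aging (0.805 to 0.819), at 0.731-fold in SMK (0.725 to 0.737) and at 0.751-fold in HC (0.743 to 0.758). Most of this sum is miR-29a-3p, so it says little about the less abundant guides.

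MiR-29a-3p, the most abundant member, had a CTL level of 55299 RPM, set against 42903 RPM in HC, 40634 RPM in SMK and 45975 RPM in aging. It was the 4th most abundant of all listed miRs in CTL and the 5th in each CRF library. It was highest in CTL and its CRF levels were within a narrow band. The fold was 0.831 in aging (0.824 to 0.839), between the limits, 0.735 in SMK (0.728 to 0.742) and 0.776 in HC (0.768 to 0.784). The place of aging between the limits depended on the scaling. MiR-29a-3p was lower in aging with the median ratio of abundant miRs (0.749-fold), by trimmed means of log ratios (0.633-fold), without miR-21a-5p in the totals (0.783-fold), with RPM multiplied by the miR share of all reads (0.564-fold) and with recovered counts divided by all reads (0.470-fold).

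MiR-29c-3p had a CTL level of 6684 RPM, set against 2761 RPM in HC, 3502 RPM in SMK and 3361 RPM in aging. Its CTL level was well above the other 3, from 16990 counts against 2869, 5848 and 5274 counts in that order. The fold was 0.503 in aging (0.487 to 0.519), 0.524 in SMK (0.508 to 0.540) and 0.413 in HC (0.397 to 0.430). It moved from rank 21 in CTL to rank 31 in aging and SMK and to rank 38 in HC. MiR-29c-3p was lower under each of 8 other scalings and pseudocounts, with folds from 0.284 to 0.504 in aging, from 0.369 to 0.526 in SMK and from 0.182 to 0.414 in HC.

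MiR-29b-3p, the least abundant guide in CTL, had a CTL level of 2803 RPM, set against 2977 RPM in HC, 3230 RPM in SMK and 3284 RPM in aging. It was between the limits in the 3 CRF libraries and its levels were close to each other. The fold was 1.17 in aging (1.13 to 1.21), 1.15 in SMK (1.11 to 1.19) and 1.06 in HC (1.02 to 1.11), but its direction depended on the scaling. With a trimmed mean of log ratios it was 0.893, 0.978 and 0.771, with the miR share of all reads 0.795, 0.853 and 0.655, and with counts over all reads 0.663, 0.811 and 0.469, in the same order. The median ratio also turned it in HC (0.959-fold). Relative to the median of all tested miRs on the log2 scale, which removes any common scaling, miR-29b-3p was at -0.01 (aging), 0.00 (SMK) and -0.23 (HC). On the same scale miR-29a-3p was at -0.51, -0.64 and -0.68, and miR-29c-3p at -1.23, -1.13 and -1.59. Some tested miRs passed the minimum only by a high CRF level, which raises this median, at 0.24, 0.20 and 0.32. A set chosen by CTL level alone, the 40 miRs between 1000 and 10000 RPM, had medians of 0.24, 0.15 and 0.20.

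**Figure D1:**
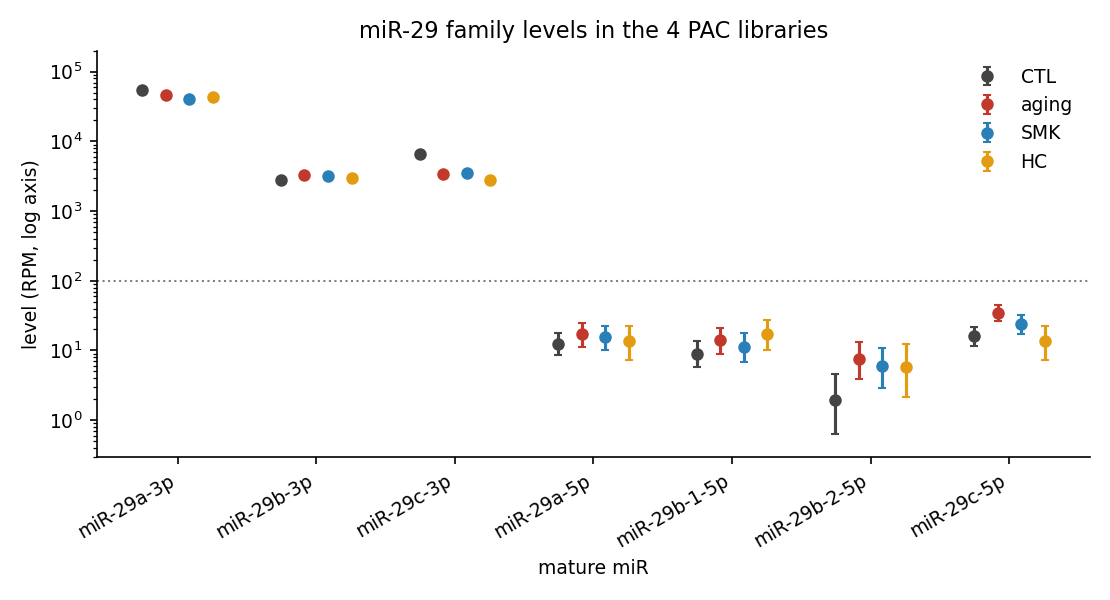
Level of each miR-29 family member (x axis) in RPM on a log axis in the CTL, aging, SMK and HC libraries (colours, 1 library each). Bars are exact 95% Poisson intervals of the counts and the dotted line is 100 RPM. The CTL point of miR-29c-3p lies above its CRF points, those of miR-29b-3p lie close together, and all 5p arms lie under the line.

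In aging, 1 of the 3 guides was lower, against 26.6% of 154 tested miRs (59.7% were past either limit). For SMK it was 2 of 3, against 14.4% of 146 (34.9% past either limit). For HC it was also 2 of 3, against 18.4% of 158 (53.2% past either limit). No guide was higher in any CRF library, while 33.1%, 20.5% and 34.8% of the tested miRs were, in the same order. With 3 members, each count rests on single miRs and is not a result about the family beyond them. The comparisons also share the CTL library.

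Among the tested miRs, 12 had a smaller fold than miR-29c-3p in aging, none in SMK and 2 in HC. Among the 55 miRs with at least 1000 RPM in CTL, 4 had a smaller fold than miR-29c-3p in aging and none in SMK or HC. Of the 40 miRs between 1000 and 10000 RPM in CTL, where miR-29c-3p lies, 9 were lower in aging, 5 in SMK and 10 in HC. Of 145 miRs tested in all 3 comparisons, 12 were lower in each. Below 0.6-fold in each were miR-29c-3p and miR-542-3p, a much scarcer miR with 102.3 RPM in CTL.

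**Figure D2:**
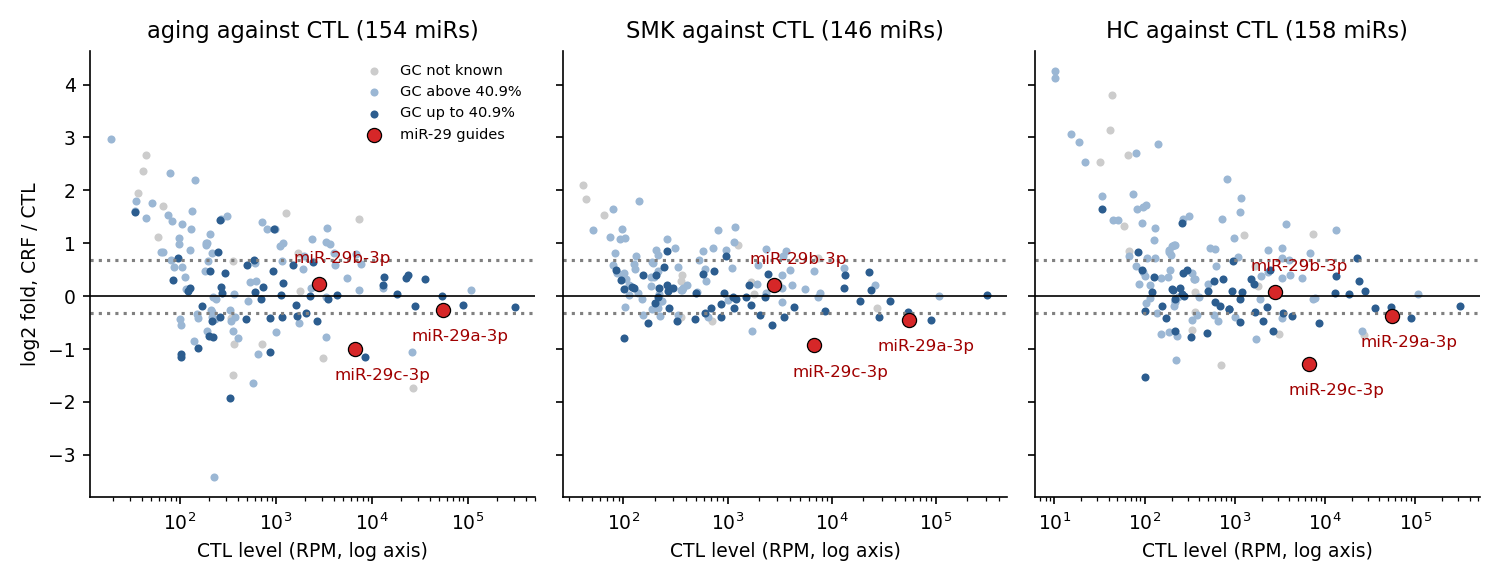
Log2 fold against CTL (y axis) of the tested miRs by their CTL level in RPM (x axis, log) in aging, SMK and HC. Blue shades give the GC content of the mature sequence, grey points have none, dotted lines are the limits of 0.8 and 1.6, and red points are the 3 guides. MiR-29c-3p lies lowest among miRs of 1000 RPM or more in SMK and HC, and miR-29b-3p lies near 0.

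The balance between the guides is free of scaling, because all 3 are read from the same library. MiR-29c-3p made up 10.3% of the guide counts in CTL (Wilson 95% interval, 10.2% to 10.5%), 6.39% in aging (6.22% to 6.56%), 7.39% in SMK (7.21% to 7.58%) and 5.68% in HC (5.48% to 5.88%). The share of miR-29b-3p went the other way, from 4.33% in CTL to 6.24%, 6.82% and 6.12%. MiR-29a-3p stayed the main guide, with 85.4% in CTL and between 85.8% and 88.2% in the CRF libraries.

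The count of miR-29c-3p over that of miR-29b-3p was 2.38 in CTL (2.32 to 2.45), 1.02 in aging (0.985 to 1.06), 1.08 in SMK (1.04 to 1.13) and 0.928 in HC (0.881 to 0.976). The intervals of the CRF libraries lay far from that of CTL. The pair was near equal in reads in the 3 CRF libraries. The ratio of miR-29c-3p to miR-29a-3p was 0.605 of its CTL value in aging, 0.713 in SMK and 0.532 in HC. That of miR-29b-3p to miR-29a-3p was 1.41, 1.57 and 1.37 times its CTL value.

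**Figure D3:**
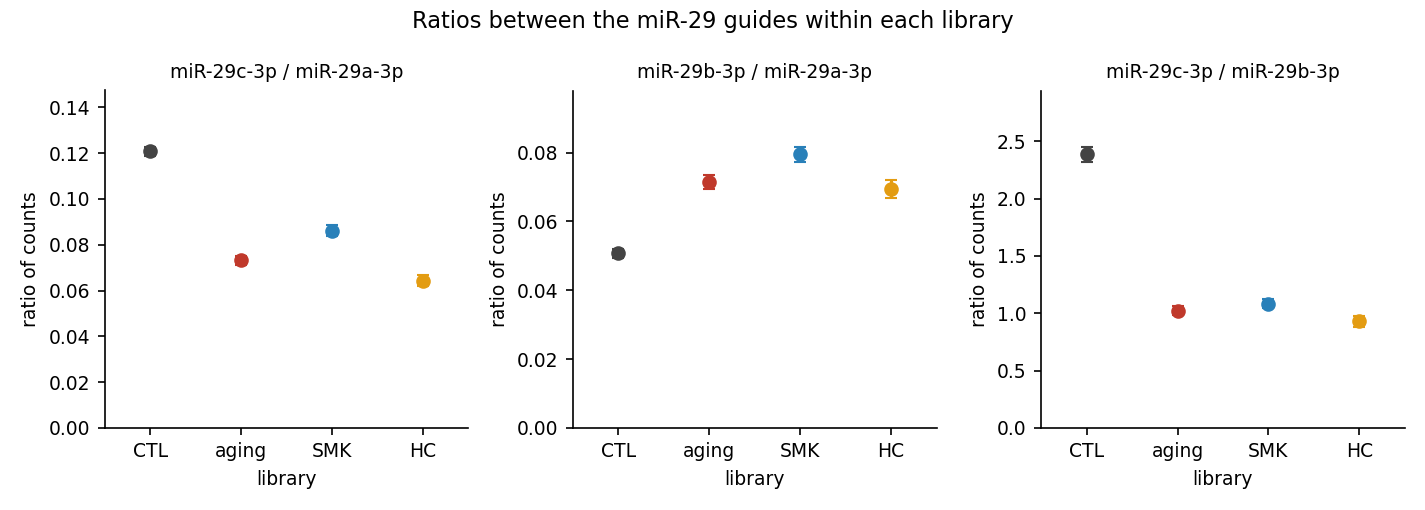
Ratio of counts between pairs of miR-29 guides (y axes start at 0) within each library (x axis). Bars are exact 95% counting intervals. In the right panel the ratio of miR-29c-3p to miR-29b-3p is 2.38 in CTL and between 0.928 and 1.08 in the CRF libraries.

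MiR-29a-3p and miR-29c-3p are 1 base apart, and the mapping allowed mismatches in a later step, so some reads may have been assigned to the wrong one. Their sum does not depend on such errors. The sum amounted to 61984 RPM for CTL. Aging had 49337 RPM (0.796-fold, 0.789 to 0.803), SMK had 44136 RPM (0.712-fold, 0.706 to 0.718) and HC had 45665 RPM (0.737-fold, 0.729 to 0.744). MiR-29b-3p differs from both at 3 or more positions.

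Without the CTL library, the CRF libraries can be compared with each other. MiR-29c-3p in aging was at 0.960-fold of SMK (0.925 to 0.997), and in HC at 0.789-fold of SMK (0.754 to 0.825) and 0.821-fold of aging (0.785 to 0.860). MiR-29a-3p was at 1.13-fold of SMK in aging (1.12 to 1.14) and at 1.06-fold of SMK in HC (1.04 to 1.07). MiR-29b-3p was at 1.02-fold of SMK in aging (0.979 to 1.06) and at 0.922-fold in HC (0.882 to 0.964). Of the guides, miR-29c-3p in HC against SMK was the only one past a limit between CRF libraries, and by little.

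The opposite arms were scarce, as is usual for strands that are discarded when a guide is loaded. Together they gave 101 CTL counts (39.7 RPM), 116 aging counts (73.9 RPM), 95 SMK counts (56.9 RPM) and 52 HC counts (50.0 RPM). Their sum was at 1.86-fold of CTL in aging (1.41 to 2.45), 1.43-fold in SMK (1.07 to 1.91) and 1.26-fold in HC (0.884 to 1.78). MiRs chosen as scarce in CTL tended upwards against CTL, which such a choice favors by itself. The 321 miRs from 1.5 to 20 RPM in CTL had a median log2 fold of 0.61 (aging), 0.38 (SMK) and 0.71 (HC), and the summed arms had 0.90, 0.52 and 0.33.

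MiR-29c-5p, from the hairpin of miR-29c-3p, had a CTL level of 16.1 RPM (41 counts), set against 13.5 RPM (14 counts) in HC, 24.0 RPM (40 counts) in SMK and 35.1 RPM (55 counts) in aging. It was highest in aging, where its fold was 2.17 (1.42 to 3.34). In SMK the fold was 1.48 (0.936 to 2.35) and in HC 0.835 (0.421 to 1.56), and both intervals include 1. In aging, therefore, miR-29c-5p was above CTL and miR-29c-3p of the same hairpin below it. The direction for miR-29c-5p in aging and SMK held under the 8 other scalings and pseudocounts. Its fold in aging fell to 1.47 with the miR share of all reads and to 1.23 with counts over all reads. Of the 321 miRs from 1.5 to 20 RPM in CTL, 48.9% were over 1.6-fold in aging.

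The 5p arms of the miR-29b hairpins differ in sequence and so tell their loci apart. MiR-29b-1-5p, from chromosome 6, had 23 (CTL), 22 (aging), 19 (SMK) and 18 (HC) counts, with levels from 9.05 RPM for CTL to 17.3 RPM for HC. MiR-29b-2-5p, from chromosome 1, had 5, 12, 10 and 6 counts in the same order, with levels from 1.97 RPM for CTL to 7.65 RPM for aging. MiR-29b-1-5p thus had more reads than miR-29b-2-5p in each library, but this did not hold for the loci as wholes. With miR-29a-5p added, the arms of chromosome 6 had 55 (CTL), 49 (aging), 45 (SMK) and 32 (HC) counts. Those of chromosome 1, with miR-29c-5p added, had 46, 67, 50 and 20. Reads of different arms do not measure the output of a locus. At 3.89-fold of CTL in aging (1.28 to 14.1), 3.04-fold in SMK (0.948 to 11.3) and 2.94-fold in HC (0.746 to 12.2), miR-29b-2-5p had intervals too wide to tell its changes from those of miR-29b-1-5p, at 1.55 (0.824 to 2.91), 1.26 (0.648 to 2.41) and 1.91 (0.974 to 3.71). MiR-29a-5p had 32, 27, 26 and 14 counts and folds of 1.37 (0.788 to 2.36), 1.24 (0.708 to 2.14) and 1.07 (0.528 to 2.06), so that no change was detectable at this depth.

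**Figure D4:**
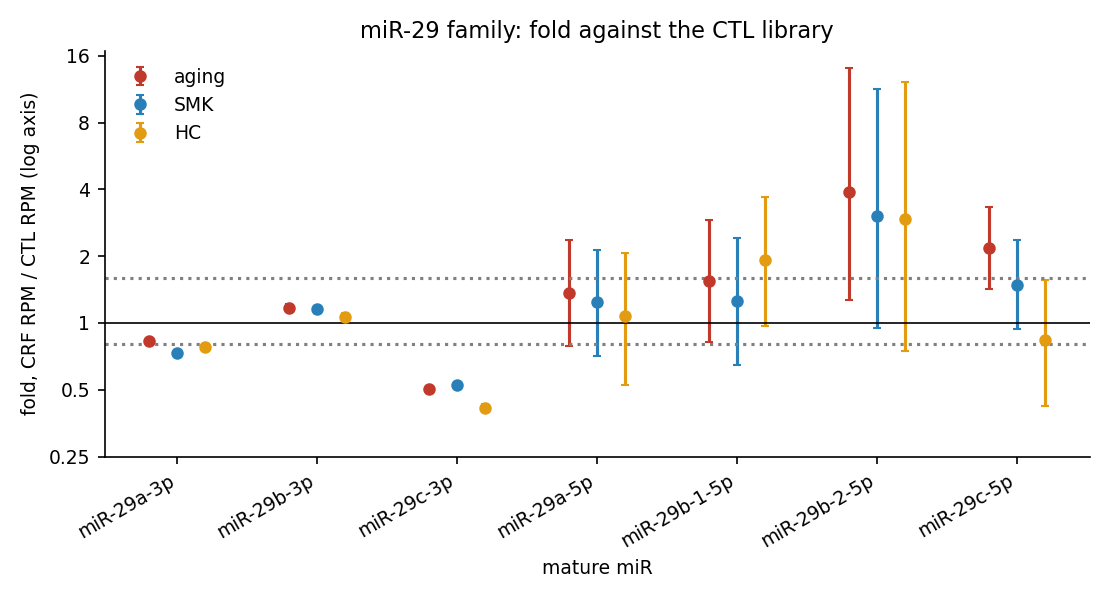
Fold of RPM in aging, SMK and HC over CTL (y axis, log) for each miR-29 family member (x axis). Bars are exact 95% counting intervals and dotted lines are the limits of 0.8 and 1.6. The intervals of the guides are no wider than the points, whereas most of those of the 5p arms reach across 1.

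Within a library, the ratio of 3p to 5p arm of a hairpin also needs no scaling. For miR-29c it was 414 in CTL (305 to 578), 95.9 in aging (73.6 to 127), 146 in SMK (107 to 205) and 205 in HC (122 to 375). Relative to CTL it was at 0.231 in aging (0.154 to 0.347), 0.353 in SMK (0.228 to 0.546) and 0.495 in HC (0.269 to 0.908), with approximate 95% intervals from the counts. For miR-29a it was at 0.608 (0.364 to 1.02), 0.594 (0.354 to 0.997) and 0.725 (0.387 to 1.36) of CTL. For miR-29b, set against both of its 5p arms, it was at 0.596 (0.361 to 0.984), 0.731 (0.434 to 1.23) and 0.507 (0.293 to 0.875). The ratio of each hairpin was highest in CTL.

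The same ratio, of the major to the minor arm, could be followed for all hairpins with at least 10 counts of each arm in CTL and in the CRF library. These were 83 hairpins in aging, 88 in SMK and 78 in HC, with the pair of miR-29b hairpins counted as 1. Its median log2 change was 0.07 (aging), -0.05 (SMK) and -0.11 (HC), and 47.0%, 56.8% and 59.0% of hairpins were below 0. The log2 change for miR-29c was -2.11 in aging and -1.50 in SMK, the 3rd lowest in each, and -1.02 in HC, where 17 hairpins were lower. Changes of miR-29a and miR-29b were between -0.45 and -0.98. Counting error is large for scarce arms, so that these places are a description.

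**Figure D5:**
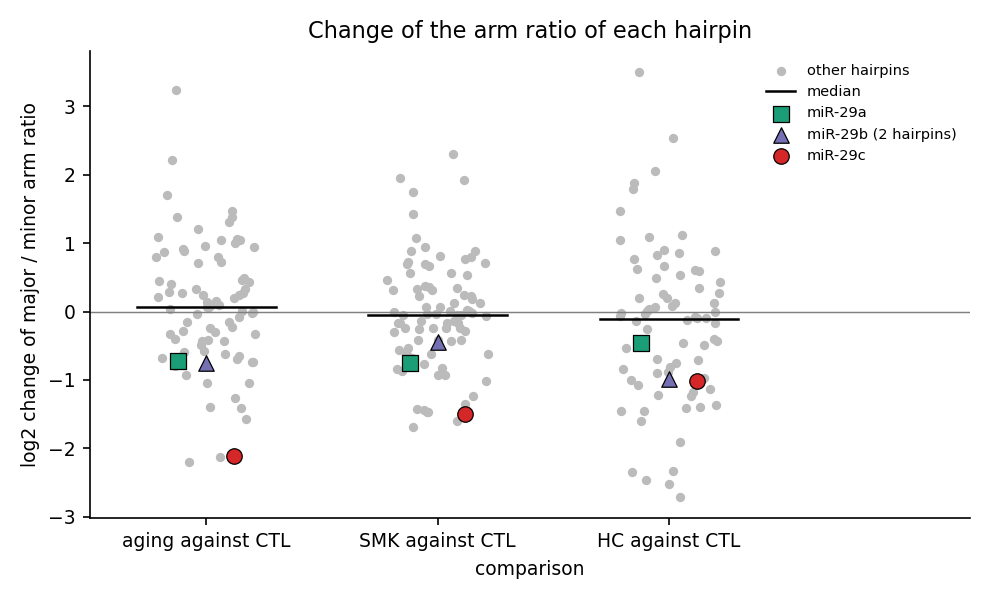
Log2 change of the ratio of major to minor arm (y axis) in aging, SMK and HC against CTL (x axis) for hairpins with at least 10 counts of each arm. Grey points are other hairpins, black lines the medians, and coloured symbols the miR-29 hairpins. The red point of miR-29c lies at -2.11 (aging), -1.50 (SMK) and -1.02 (HC).

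The guides are poor in G and C, with a GC content of 40.9% for miR-29a-3p, 34.8% for miR-29b-3p and 36.4% for miR-29c-3p. Across the tested miRs with a sequence, folds were larger with more GC in the 3 comparisons, with Spearman's rho of 0.40 in aging (138 miRs), 0.49 in SMK (132 miRs) and 0.53 in HC (141 miRs). These points share their libraries and the rho is a description across miRs. Other miRs with a GC content up to 40.9% had a median log2 fold of 0.01 (aging), -0.02 (SMK) and 0.03 (HC), and those above it 0.60, 0.41 and 0.69. Some tested miRs, mostly of high GC content, passed the minimum only by a high CRF level. That choice raises the medians, above all the one for high GC, and can raise the rho. Against other miRs of low GC, miR-29c-3p was lower by a log2 difference of -1.01 (aging), -0.92 (SMK) and -1.31 (HC). For miR-29a-3p this difference was -0.28, -0.43 and -0.40, and for miR-29b-3p 0.21, 0.22 and 0.06. The part of GC content in these folds was not tested further. A single other tested miR had UUU at bases 9 to 11, the epithelial miR-203-3p, at 1.64-fold (aging), 1.24-fold (SMK) and 1.40-fold (HC). With 94.8 RPM in CTL, it passed the minimum of 100 RPM only by its CRF levels. Its folds above 1 were thus fixed by the minimum and say nothing of these bases.

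Members of a seed family often differed from each other. There were 8 seed families with at least 3 tested members and RefSeq sequences, and the range of log2 fold within a family had a median of 0.95 (aging), 0.66 (SMK) and 0.82 (HC). In the miR-29 family the range was 1.22, 1.14 and 1.36. Among these 8, a wider range was seen in 1 family in aging, in none in SMK and in 1 in HC, and the wider one was the miR-15/16 family in both cases, with 1.87 in aging and 1.45 in HC. The miR-30 family entered with 3 members, because miR-30b-5p and miR-30d-5p had no matched sequence. With these, its 5 members had ranges of 2.36, 1.18 and 2.47, wider than those of the miR-29 family in each comparison. The let-7 family, with 9 members, had ranges of 0.96, 0.92 and 1.23.

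MiRs with a profile like each guide were sought among those with at least 100 RPM in all 4 libraries, by the root mean square difference of the 3 log2 folds. Nearest to miR-29a-3p were let-7f-5p (0.06), miR-19a-3p (0.06), miR-101a-3p (0.08), miR-148a-3p (0.13) and miR-192-5p (0.14). Nearest to miR-29b-3p were miR-26b-5p (0.04), miR-10a-3p (0.08), miR-674-5p (0.09), miR-16-5p (0.13) and miR-532-5p (0.13). MiR-29c-3p had no such close neighbour in this set: the nearest were miR-30b-5p (0.28), miR-101b-3p (0.42), miR-7a-5p (0.52), miR-101c (0.54) and miR-345-3p (0.56). The set leaves out miRs that fell under 100 RPM in a CRF library. MiR-542-3p was left out in this way, with folds of 0.449 (aging), 0.580 (SMK) and 0.348 (HC), like those of miR-29c-3p. MiR-30b-5p had 710.1 RPM (CTL), 381 RPM (aging), 514 RPM (SMK) and 289.7 RPM (HC). The distance from miR-29c-3p to miR-29a-3p was 0.73 and to miR-29b-3p 1.24, close to its median distance of 1.26. All profiles share the CTL library.

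Of 19 other miRs known to restrain matrix genes, 18 were listed and 11 passed the minimum of 100 RPM. The lower ones numbered 5 (aging), 4 (SMK) and 8 (HC), and 1 was higher in each, while of all tested miRs 26.6%, 14.4% and 18.4% were lower and 33.1%, 20.5% and 34.8% higher. Their median log2 folds were -0.32, -0.21 and -0.41 against 0.24, 0.20 and 0.32 for all tested miRs. These 11 all passed by their CTL level, whereas some of all tested miRs passed only by a high CRF level. The latter raise the median of all tested miRs and the share called higher, so the 2 sets are not fully alike. The most abundant were miR-26a-5p (folds of 1.28, 1.31 and 1.30, in the same order), miR-26b-5p (1.16, 1.11 and 1.04), miR-30d-5p (2.75, 1.65 and 2.27) and miR-30e-5p (1.01, 0.867 and 0.772). MiR-30d-5p, whose family represses the matrix protein gene Ctgf in rat heart cells, was the higher member in each. Among the lower members were miR-101b-3p, at 0.704, 0.632 and 0.574, and miR-30b-5p, at 0.536, 0.724 and 0.408.

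Of 8 miRs known to favor fibrosis, 7 were listed and 5 passed the minimum. Of these 3 (aging), 1 (SMK) and 2 (HC) were lower, against 26.6%, 14.4% and 18.4% of all tested miRs, and none was higher, against 33.1%, 20.5% and 34.8%. Under the minimum, miR-214-3p was at 2.14-fold (1.55 to 2.98), 3.18 (2.36 to 4.31) and 3.49 (2.53 to 4.83), in the same order. MiR-199b-5p, also under it, was at 0.231, 0.906 and 0.408. MiR-21a-5p, which favors fibroblast survival, was at 0.862-fold (aging), 1.01 (SMK) and 0.884 (HC). The joint row of miR-199a-3p and miR-199b-3p was at 0.453, 0.825 and 0.700, miR-34a-5p at 1.09, 0.984 and 0.962, and miR-199a-5p at 0.574, 1.16 and 0.990.

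MiR-29 is also one of a group of miRs known to be repressed by Myc. The counts of called miRs that follow stand beside 26.6% (aging), 14.4% (SMK) and 18.4% (HC) of all tested miRs that were lower, and 33.1%, 20.5% and 34.8% that were higher. Of 17 others of this group, 16 passed the minimum, with 4 lower and 4 higher for aging, 2 lower and 3 higher for SMK, and 4 lower and 3 higher for HC, with median log2 folds of 0.07, 0.15 and 0.07. The cluster from miR-17 to miR-92a, which Myc induces, had 5 tested miRs. The lower ones numbered 3 (aging), 2 (SMK) and 3 (HC), and 1 was higher in each. The higher one was miR-92a-3p, at 2.41, 2.38 and 4.64-fold. Of 7 other miRs known to repress genes of DNA or histone methylation, none was higher, and 2 were lower in aging, 3 in SMK and 3 in HC. They include miR-148a-3p, a repressor of Dnmt1, at 0.958, 0.766 and 0.801-fold.

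Markers of the cell types that PAC cultures can hold moved between the libraries. The 5 myeloid miRs took from 8.80% (CTL) to 10.1% (aging) of a library, but did not move together. Of the 4 tested, 1 was higher in each CRF library: miR-142a-5p in aging (2.40-fold) and SMK (1.68-fold), and miR-223-3p in HC (1.65-fold). MiR-146a-5p was lower in SMK (0.761-fold). MiR-511-3p, under the minimum, was at 0.297 (aging), 0.939 (SMK) and 1.14 (HC). Both arms of the endothelial miR-126a took 2.91% (CTL), 1.38% (aging), 3.37% (SMK) and 1.84% (HC). The 8 stromal miRs took 3.76% of CTL, 1.28% of aging, 3.28% of SMK and 2.38% of HC, with 7 of 7 tested lower in aging, 5 lower in HC, and 2 lower and 1 higher in SMK. Of all tested miRs, 26.6% were lower in aging, 18.4% in HC and 14.4% in SMK, and 33.1%, 34.8% and 20.5% were higher. The stromal miR left untested, miR-214-3p, was under 100 RPM in every library and went the other way. It was at 2.14-fold in aging (1.55 to 2.98), 3.18 in SMK (2.36 to 4.31) and 3.49 in HC (2.53 to 4.83). Epithelial, lymphoid and erythroid markers that were listed were each under 100 RPM in every library, and 1 of the 2 erythroid ones was not listed. No deposited value of any miR is 0, so a level above 0 does not show that such cells were present. The folds of miR-29c-3p were 0.503 in aging, 0.524 in SMK and 0.413 in HC. The part of cell makeup in the miR-29 folds was not tested.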

How the data were processed

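Small RNA of PACs was sequenced in 4 libraries. According to the methods, RNA was pooled within each group, libraries were made with a QIAseq kit, and reads were mapped stepwise with bowtie to miRBase, other RNAs and GRCm38. The submitters' processing notes name bcl2fastq 2.20, TopHat2 2.0.10 and HTSeq 0.5.4 instead, with mm10. Which account holds is not known. The values were deposited by the authors as RPM. Merging of reads by molecular identifier is not given in the sources used here, so intervals cover counting error only. Each value divided by the smallest of its library was whole, within 0.001, for 100% of the 568 miRs, which gave totals of 2541732 (CTL), 1568958 (aging), 1670010 (SMK) and 1038986 counts (HC).

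Folds are ratios of RPM without a pseudocount. With 1 library per group no count model could be tested. The alternatives were 5 other scalings, pseudocounts of 1 and 10 RPM, SMK as the reference, other minimums and limits, and intervals wholly past a limit. For 1 of these scalings, RPM were multiplied by the share of miR reads in all reads, from the library summary of the study. The miR reads of that summary exceed the recovered counts in each library, so recovered counts over all reads were added as another scaling after seeing the data. Sequences and hairpin positions come from RefSeq (GRCm38.p6), in which 487 of 568 rows had a mature sequence, and gene overlaps from GENCODE M21. The named miRs were all family members, the 5 nearest profiles of each guide and up to 4 members of a list by CTL level, and others were named after their values were seen. Members and lists were chosen with the paper and earlier results of these data known. Folds and intervals were tested on simulated counts. The work used Python 3.11.15, numpy 2.4.6, scipy 1.17.1, pandas 2.3.3, matplotlib 3.10.9, R 4.3.3 and edgeR 4.0.16, the last for the trimmed mean of log ratios.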

Additional observations from a re-analysis of the deposited data

How the results depend on the processing

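The fold of the summed guides in aging, SMK and HC was 0.732, 0.655 and 0.678 with the median ratio of 123 abundant miRs, 0.619, 0.621 and 0.545 by trimmed means of log ratios, 0.551, 0.541 and 0.463 with RPM multiplied by the miR share of all reads, and 0.459, 0.515 and 0.331 with recovered counts over all reads, an alternative chosen after seeing the data. These scalings shift every log2 fold by -0.15 to -0.16, by -0.24 to -0.46, by -0.43 to -0.70 and by -0.51 to -1.18, and the last turned, among others, miR-29b-1-5p in HC (0.845). Totals without the miR-29 family gave 0.802, 0.718 and 0.738, and totals without miR-21a-5p gave 0.765 in aging and 0.714 in HC. With SMK as the reference, the summed guides were at 1.11-fold in aging and 1.03-fold in HC. This is a comparison with other mice and not another processing of the comparison with CTL. Against SMK, miR-29a-3p in aging (1.13) was also on the other side of 1 than against CTL. The same held in HC for miR-29a-3p (1.06), miR-29b-3p (0.922), miR-29a-5p (0.865) and miR-29b-2-5p (0.964). In aging, the members past the limits were 2 with the median ratio, the trimmed mean, totals without miR-21a-5p or a minimum of 10 RPM, 3 with either use of all reads or no minimum, and 0 with SMK as the reference. In SMK they were 1 with limits of 0.6 and 2 or with limits symmetric on the log scale around an upper one of 1.6. Without a minimum they were 3 in SMK. In HC they were 1 with either of those limits or with SMK as the reference, 3 with the trimmed mean, either use of all reads or a minimum of 10 RPM, and 4 without a minimum. Pseudocounts moved no fold of the summed guides beyond its interval. The counts without a minimum include 5p arms with as few as 5 counts, for which depth limits any statement, and pool size and condition cannot be told apart.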
